A study of Mus musculus with 6 samples.

Results

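The cell cycle and DNA replication genes were 43 genes taken by name from a table of 21358 gene entries, and every one of them was found. They fell into 24 mitotic genes, 13 replication genes and 6 genes of the G1/S step. The samples were whole tumors of B16F10, a mouse melanoma line that expresses gp100, grown under the skin of C57/BL6 mice. All mice had received total body irradiation to deplete their lymphocytes and then pmel-1 T cells, which carry a transgenic TCR specific for gp100, by adoptive cell transfer (ACT), with tumors of at least 150 mm3 at transfer. One group of 3 mice was given IL-2 on consecutive days of each cycle (ACT + IL-2). The other group of 3 mice was given NKTR-214, a pegylated IL-2 biased to the beta and gamma chains of the IL-2 receptor, once per cycle (ACT + NKTR-214). Tumors were taken at day 12, and each tumor gave 1 library of 50-base reads. No untreated tumor or tumor without ACT was analysed here, so every difference is between both treated groups. The question asked of these genes was whether the genes of mitosis and those of DNA replication differed between the treatments to the same extent.

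A dividing cell commits at the G1/S step, where D- and E-type cyclins with CDK4, CDK6 and CDK2 inactivate the retinoblastoma protein and release E2F factors. E2F targets then supply the MCM helicase, the replication clamp and the enzymes that make deoxynucleotides, and the DNA is copied in S phase. Later, FOXM1 and the MuvB complexes switch on the genes of G2 and mitosis, among them cyclins A and B, CDK1, the Aurora and Polo kinases, the spindle checkpoint and the kinesins. In a melanoma these genes are expressed in dividing tumor cells, and activated T cells and other infiltrating cells that divide express them too. In bulk tumor RNA, fewer cells of a type and less RNA per cell cannot be told apart.

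Values are FPKM, which divide the fragments of a gene by its exon length and by the mapped fragments of the library, so that levels can be compared between genes per unit length. The choice of scaling changes how many members pass the test. The level of one read in lowly expressed genes gave an estimated depth of 20900000 to 24700000 reads per library, and the lowest FPKM of any member, that of *Ccnb1*, stood for about 160 reads in one tumor. The FPKM of all entries summed to 176420 in ACT + IL-2 replicate 2 and to between 217581 and 246514 in the other 5 tumors. The melanocyte markers of the tumor (*Mlana*, *Pmel*, *Tyr*, *Tyrp1*, *Dct*, *Mitf*, *Sox10* and *Slc45a2*) were expressed in every tumor. Their summed FPKM was 5600 to 7180 in ACT + IL-2 and 2760 to 3900 in ACT + NKTR-214, and 6 of 8 passed the test as lower (median log2 fold change -0.86), a count of 3 to 8 over the alternative settings. The T cell markers summed to 13.8 to 32.1 and to 170 to 366 FPKM, the macrophage and monocyte markers to 202 to 557 and to 1070 to 1930, and all 9 and all 7 of them were higher with NKTR-214. Without ACT + IL-2 replicate 2, 4 of the 7 macrophage and monocyte markers were higher. All 4 neutrophil markers were higher as well (median 1.80), as were 2 of 4 NK cell and 1 of 4 endothelial markers. The endothelial count was 0 without ACT + IL-2 replicate 2 and 3 without either ACT + IL-2 replicate 1 or ACT + NKTR-214 replicate 3. The 6 fibroblast markers had overlapping sums of 218 to 644 and 581 to 1160 FPKM, and all 6 were higher on FPKM (median 1.18), but 3 under TPM and 0 without ACT + IL-2 replicate 2. Of the 2 B cell and 3 erythroid markers tested, 0 passed with all tumors, but all 3 erythroid markers were higher without either ACT + IL-2 replicate 1 or ACT + NKTR-214 replicate 3, and 1 B cell marker was higher without ACT + IL-2 replicate 1. Among all genes tested, 20.7% were higher and 8.28% were lower on FPKM. Cell cycle genes were therefore compared between tumors that also differed in melanocyte, T cell, macrophage and monocyte, and neutrophil markers.

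The promoters of the members differ in the motifs they hold, and 6 are printed here. *Bub1*, *Cdk1*, *Mcm2*, *Rrm1* and *Cdk2* are members that passed the test between treatments, and *Mcm5*, which did not, is a window rich in E2F-like letters. RefSeq promoter windows (GRCm38.p6, from 250 bases before to 50 bases after the start of a transcript, 300 bases each) were matched for 35 of the 43 members, in 37 windows. Sequences run 5′ to 3′ on the strand of the gene, and capitals mark every match, on either strand, to one of 4 motifs. These were the CHR element TTTGAA, its other form TTCGAA, the CCAAT box, and E2F-like letters, that is TTTGGCG or the forms TTTCGCG, further TTCCCGC, or lastly TTGGCGC, which can overlap one another. MuvB complexes are known to bind the CHR element, and NF-Y the CCAAT box.
Bub1, chr2:127831810-127832109, minus strand: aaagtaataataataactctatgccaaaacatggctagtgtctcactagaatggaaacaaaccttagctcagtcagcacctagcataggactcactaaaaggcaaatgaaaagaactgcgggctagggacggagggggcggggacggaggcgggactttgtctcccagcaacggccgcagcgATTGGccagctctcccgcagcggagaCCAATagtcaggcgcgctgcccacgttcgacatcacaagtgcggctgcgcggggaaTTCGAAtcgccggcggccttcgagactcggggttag
Cdk1, chr10:69352863-69353162, minus strand: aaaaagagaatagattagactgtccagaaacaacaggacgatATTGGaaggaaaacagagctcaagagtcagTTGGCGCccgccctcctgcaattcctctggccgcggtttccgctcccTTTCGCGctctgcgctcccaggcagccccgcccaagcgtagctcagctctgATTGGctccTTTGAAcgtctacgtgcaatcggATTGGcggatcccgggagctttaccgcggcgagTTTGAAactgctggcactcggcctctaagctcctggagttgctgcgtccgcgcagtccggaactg
Mcm2, chr6:88898731-88899030, minus strand: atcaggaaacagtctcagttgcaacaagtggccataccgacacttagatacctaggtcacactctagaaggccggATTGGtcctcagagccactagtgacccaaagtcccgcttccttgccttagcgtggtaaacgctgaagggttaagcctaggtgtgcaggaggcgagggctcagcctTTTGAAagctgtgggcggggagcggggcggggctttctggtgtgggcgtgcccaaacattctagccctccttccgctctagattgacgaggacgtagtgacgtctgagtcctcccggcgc
Rrm1, chr7:102441445-102441744, plus strand: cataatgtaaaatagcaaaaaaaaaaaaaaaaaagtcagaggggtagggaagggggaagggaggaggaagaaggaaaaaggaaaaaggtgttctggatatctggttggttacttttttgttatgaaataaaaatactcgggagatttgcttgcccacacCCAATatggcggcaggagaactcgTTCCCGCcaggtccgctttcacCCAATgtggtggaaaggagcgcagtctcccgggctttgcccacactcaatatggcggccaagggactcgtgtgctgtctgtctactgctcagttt
Mcm5, chr8:75109259-75109558, plus strand: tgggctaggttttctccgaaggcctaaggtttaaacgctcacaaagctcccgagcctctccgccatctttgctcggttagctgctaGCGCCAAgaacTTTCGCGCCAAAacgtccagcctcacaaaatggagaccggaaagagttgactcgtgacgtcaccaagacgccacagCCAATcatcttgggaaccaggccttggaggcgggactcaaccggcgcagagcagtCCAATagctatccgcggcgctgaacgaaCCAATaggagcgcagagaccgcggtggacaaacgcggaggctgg
Cdk2, chr10:128705002-128705301, minus strand: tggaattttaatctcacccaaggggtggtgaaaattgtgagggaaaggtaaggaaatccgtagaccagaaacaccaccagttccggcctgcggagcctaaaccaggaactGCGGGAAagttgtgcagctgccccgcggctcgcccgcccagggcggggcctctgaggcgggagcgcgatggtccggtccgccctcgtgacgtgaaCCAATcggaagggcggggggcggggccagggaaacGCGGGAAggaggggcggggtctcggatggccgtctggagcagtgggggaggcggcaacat

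The CHR element TTTGAA was found in 15 of 20 windows of mitotic genes (75%), in 1 of 13 windows of replication genes (7.69%) and in 0 of 4 windows of G1/S genes, against 17.9% of all 32851 RefSeq windows. The window of *Cdk1* holds it more than once, that of *Bub1* holds the other form TTCGAA, and *Mcm2* was the replication gene with TTTGAA. E2F-like letters had the opposite distribution, with 8 of 13 windows of replication genes (61.5%), 3 of 20 of mitotic genes (15%) and 1 of 4 of G1/S genes (25%), that of *Cdk2*, against 8.4% of all windows. CCAAT boxes were found in 90.0% of mitotic, 69.2% of replication and 25% of G1/S windows, against 37.4% of all. Letters in a window are no evidence of binding. In the comparison of treatments that follows, the CHR element was in the windows of 7 of the 10 mitotic genes with a window that passed the test and of 7 of the 9 that did not. Of the replication genes with a window, E2F-like letters were in 1 of the 5 that passed the test, *Rrm1*, and in 6 of the 7 that did not.

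**Figure D1:**
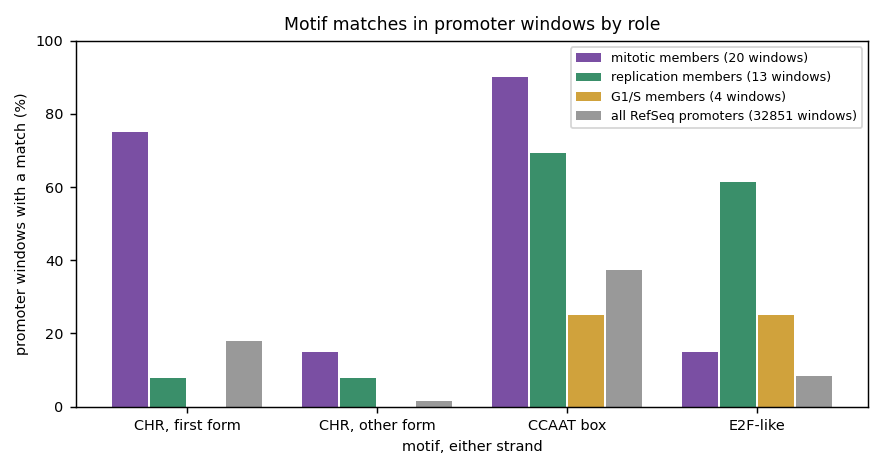
Share of RefSeq promoter windows with a motif match on either strand (y axis, percent) for 4 motifs, by role of the gene and for all windows. The CHR element is highest in mitotic genes (75%) and E2F-like letters are highest in replication genes (61.5%).

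Across the 43 genes, 20 fell and 0 rose with NKTR-214 relative to IL-2 (limma on log2(FPKM + 1), Benjamini-Hochberg adjusted p under 0.05 over 14172 genes). Of all genes tested, 8.28% were lower and 20.7% were higher, so 46.5% of these genes were lower against that background. The median log2 fold change of the 43 genes was -0.46 and 41 of them were negative, beside a median of 0.05 and 44.3% negative over all genes tested. In 25 of the 43 genes all 3 ACT + NKTR-214 tumors lay below all 3 ACT + IL-2 tumors, a pattern found in 15.3% of all genes. A single gene compared over 3 against 3 tumors cannot reach an exact two-sided permutation p below 0.1, so these calls rest on the distributional assumptions of limma.

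**Figure D2:**
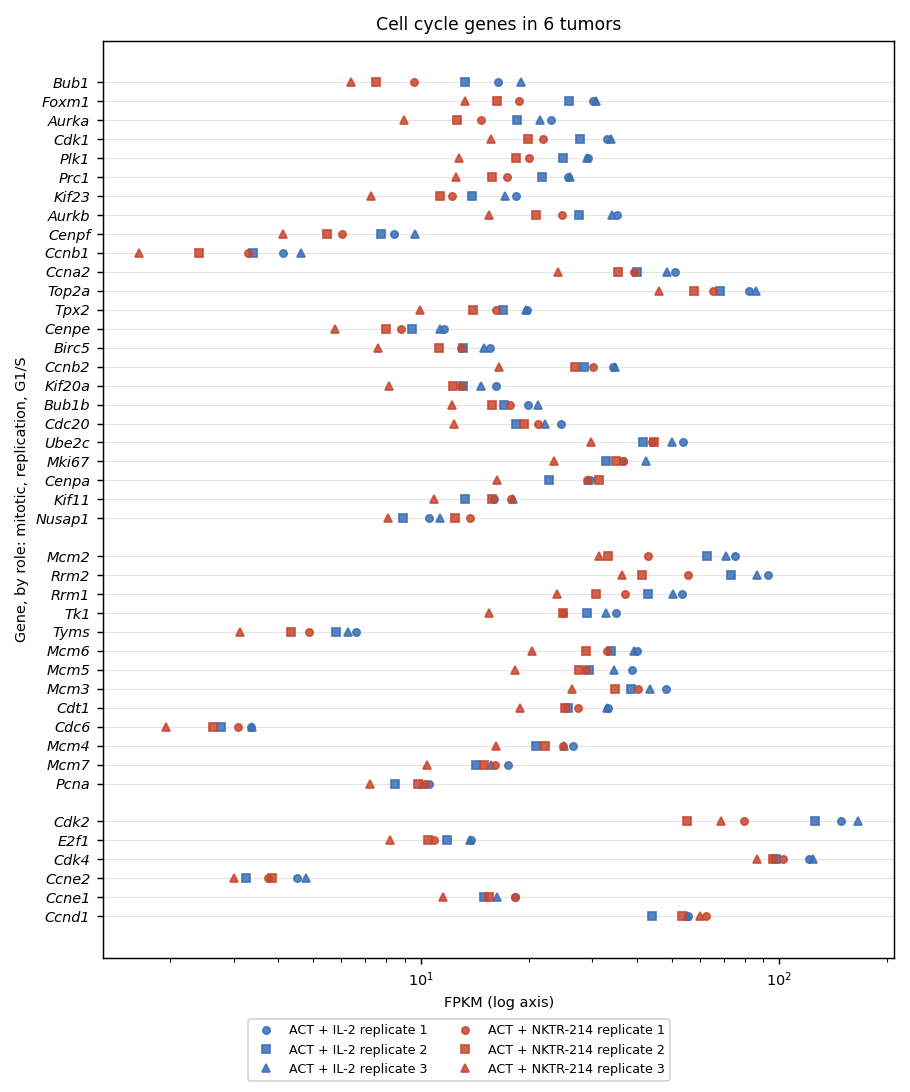
FPKM of the 43 genes (x axis, log scale) in each of the 6 tumors, with genes grouped by role and ordered by their difference. ACT + NKTR-214 replicate 3 (red triangles) is the lowest of the 6 tumors in 41 genes.

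Among the mitotic genes, 14 of 24 fell, 0 rose, and the median log2 fold change was -0.48. The largest drop was that of *Bub1*, a kinase of the spindle checkpoint. Its FPKM in replicates 1, 2 and 3, the order used throughout, was 16.4, 13.3 and 19 with IL-2 and 9.56, 7.47 and 6.37 with NKTR-214. Every ACT + NKTR-214 tumor was below every ACT + IL-2 tumor, and the mean went from 16.2 ± 2.86 to 7.80 ± 1.62 (SD, n = 3 each). The log2 fold change was -0.97 (SE 0.17, adjusted p = 0.000475).

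*Foxm1*, the transcription factor that drives many G2 and mitotic genes, had FPKM of 30.2, 25.8 and 30.9 in ACT + IL-2 and 18.8, 16.3 and 13.2 in ACT + NKTR-214. It fell by 0.82 on the log2 scale (SE 0.16, adjusted p = 0.000865) with no overlap between the groups. *Aurka*, the Aurora kinase of centrosomes and spindle poles, had FPKM of 23, 18.6 and 21.4 against 14.7, 12.6 and 8.96. Its groups did not overlap either, and the log2 fold change was -0.77 (SE 0.17, adjusted p = 0.00305). *Cdk1*, the kinase whose activation with cyclin B starts mitosis, had FPKM of 33.1, 27.7 and 33.9 against 21.9, 19.8 and 15.7. Again the lowest ACT + IL-2 tumor was above the highest ACT + NKTR-214 tumor, at a log2 fold change of -0.70 (SE 0.16, adjusted p = 0.00301).

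The other mitotic genes that fell belonged to mitotic entry, the spindle, the kinetochore and cytokinesis. They were the kinases *Plk1* (log2 fold change -0.69, adjusted p = 0.00572) and *Aurkb* (-0.65, adjusted p = 0.00957), the midzone and cytokinesis genes *Prc1* (-0.66, adjusted p = 0.00411) and *Kif23* (-0.66, adjusted p = 0.0121), and the kinetochore genes *Cenpf* (-0.64, adjusted p = 0.00768) and *Cenpe* (-0.48, adjusted p = 0.0410). The cyclins *Ccnb1* (-0.57, adjusted p = 0.0263) and *Ccna2* (-0.51, adjusted p = 0.0459) and the spindle assembly factor *Tpx2* (-0.48, adjusted p = 0.0432) passed the threshold as well. *Top2a*, the topoisomerase that untangles sister chromatids, had FPKM of 82.1, 68.5 and 85.9 against 65.2, 57.8 and 46.0. Its groups were separated by only a small gap, and it fell by 0.48 on the log2 scale (SE 0.17, adjusted p = 0.0428).

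The 10 mitotic genes that did not pass the test included *Mki67*, the proliferation marker Ki-67. *Mki67* FPKM was 36.6, 32.8 and 42.5 in ACT + IL-2 and 36.5, 35 and 23.4 in ACT + NKTR-214. Replicates 1 and 2 of ACT + NKTR-214 lay within the range of ACT + IL-2 and only replicate 3 lay below it (log2 fold change -0.25, 95% interval -0.62 to 0.13, adjusted p = 0.324). *Cenpa*, the histone of the centromere, gave 29.6, 22.7 and 29.2 against 29.1, 31.4 and 16.3, which spanned the ACT + IL-2 values on both sides (log2 fold change -0.13, adjusted p = 0.696).

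*Kif11*, the kinesin that pushes spindle poles apart, gave 16.0, 13.3 and 18.1 against 17.8, 15.8 and 10.8 (log2 fold change -0.10, adjusted p = 0.713). *Nusap1*, a spindle microtubule binder, was the mitotic gene with a positive value, with FPKM of 10.6, 8.93 and 11.3 against 13.7, 12.4 and 8.09. In both genes the ACT + NKTR-214 tumors lay on either side of the ACT + IL-2 mean, and the *Nusap1* log2 fold change of 0.11 had a 95% interval of -0.27 to 0.50 (adjusted p = 0.680). The remaining 6 were *Birc5* (survivin), *Ccnb2*, *Kif20a*, *Bub1b*, *Cdc20* and *Ube2c*, with log2 fold changes between -0.45 and -0.30. Mean FPKM of mitotic genes thus moved by between -51.9% and 11.1%, with a median of -29.0%.

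Among the replication genes, 5 of 13 fell, 0 rose, and the median log2 fold change was -0.46, with all 13 values negative. *Mcm2*, a subunit of the helicase that unwinds DNA at replication forks, had FPKM of 75, 62.9 and 70.9 in ACT + IL-2 and 43, 33.3 and 31.3 in ACT + NKTR-214. The groups were far apart, with means of 69.6 ± 6.17 and 35.9 ± 6.23 (SD, n = 3 each), and the log2 fold change was -0.95 (SE 0.16, adjusted p = 0.000325). The other subunits of the same hexamer differed less, with log2 fold changes of -0.47 for *Mcm6*, -0.46 for *Mcm5*, -0.37 for *Mcm3*, -0.20 for *Mcm4* and -0.20 for *Mcm7*, none past the threshold. The differences between subunits were not tested.

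The enzymes of deoxynucleotide synthesis accounted for the other calls. *Rrm2*, the small subunit of ribonucleotide reductase, had FPKM of 92.6, 73.1 and 86.7 against 55.7, 41.4 and 36.5, with no overlap (log2 fold change -0.92, SE 0.18, adjusted p = 0.000945). *Rrm1*, the large subunit of the same enzyme, had 53.4, 43.1 and 50.5 against 37.2, 30.8 and 23.9, again without overlap (log2 fold change -0.68, SE 0.17, adjusted p = 0.00698). *Tk1*, the thymidine kinase of S phase, had 35, 29.0 and 32.8 against 25, 25 and 15.5 (log2 fold change -0.57, SE 0.18, adjusted p = 0.0242). In *Tk1* replicates 1 and 2 of ACT + NKTR-214 were level and replicate 3 was far below them. *Tyms*, the thymidylate synthase, fell by 0.51 on the log2 scale (adjusted p = 0.0283).

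The clamp *Pcna*, often used as a proliferation marker, was the replication gene with the smallest difference. Its FPKM was 10.6, 8.48 and 10.1 in ACT + IL-2 and 10.2, 9.78 and 7.21 in ACT + NKTR-214, so that the groups overlapped except for replicate 3 (log2 fold change -0.10, 95% interval -0.44 to 0.25, adjusted p = 0.705). *Mcm4* gave 26.5, 20.9 and 25 against 25, 22.2 and 16.2 (log2 fold change -0.20, adjusted p = 0.410). *Mcm7*, another subunit of the helicase, gave 17.5, 14.3 and 15.7 against 16.1, 15 and 10.4 (-0.20, adjusted p = 0.409), so that replicates 1 and 2 of ACT + NKTR-214 lay within the ACT + IL-2 range in both subunits. *Cdc6*, which loads the helicase at origins, gave 3.36, 2.77 and 3.39 against 3.09, 2.63 and 1.94 (log2 fold change -0.24, adjusted p = 0.286). The groups overlapped in all of these, and in each of them replicate 3 of ACT + NKTR-214 was the lowest of the 6 tumors. The licensing factor *Cdt1* was at -0.36 (adjusted p = 0.124). Mean FPKM of replication genes moved by between -48.5% and -6.48%, with a median of -27.3%.

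Of the 6 G1/S genes, *Cdk2* alone passed the test. The median log2 fold change of the 6 was -0.22, or -0.15 without ACT + NKTR-214 replicate 3. *Cdk2*, the partner of the E and A cyclins, had the highest mean FPKM of the 43 genes in ACT + IL-2 and the largest difference. Its FPKM was 148, 126 and 166 in ACT + IL-2 and 79.8, 55.1 and 68.6 in ACT + NKTR-214, and the groups were separated by a wide gap. The log2 fold change was -1.11 (SE 0.18, adjusted p = 0.000255). On FPKM it was one of the 2 members, with *Ccnd1*, whose lowest ACT + NKTR-214 tumor was replicate 2 (4 members under TPM, with *Mcm2* and *Cdk4*), and in all 8 melanocyte markers replicate 2 was the lowest as well. *Cdk2* lies next to *Pmel*, the melanocyte gene for gp100, on the opposite strand of chromosome 10 (GRCm38, 128697939 to 128705031), and 0.5% of its exon bases overlap an exon of *Pmel*. Without the strand setting, reads of that overlap cannot be told apart. *Mitf*, the melanocyte factor for which *Cdk2* is a known target, was 126, 99.3 and 120 against 38.2, 19.4 and 35.7 FPKM (log2 fold change -1.91, adjusted p = 7.65e-06). The part of the melanocyte markers in the *Cdk2* difference was not tested.

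Of the other G1/S genes, *E2f1*, the E2F factor of the G1/S step, had FPKM of 13.8, 11.8 and 13.7 against 10.9, 10.4 and 8.20. The groups did not overlap, yet the adjusted p of 0.0677 missed the threshold at a log2 fold change of -0.39. *Cdk4* gave 121, 98.0 and 124 against 102, 96.0 and 86.7 (log2 fold change -0.26, adjusted p = 0.274). The groups overlapped in both E cyclins, the activators of CDK2. *Ccne1* was at 18.3, 15 and 16.3 against 18.3, 15.5 and 11.5 (-0.14, adjusted p = 0.580). *Ccne2* was at 4.5, 3.25 and 4.79 against 3.75, 3.83 and 3.00 (-0.19, adjusted p = 0.436). *Ccnd1*, the D cyclin that responds to growth factors, was one of 2 members with a positive value. Its FPKM was 55.7, 44.1 and 55.4 against 62.4, 53.6 and 60.1 (log2 fold change 0.18, 95% interval -0.15 to 0.51, adjusted p = 0.415), so that replicates 1 and 3 of ACT + NKTR-214 lay above all ACT + IL-2 tumors and replicate 2 lay within them.

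**Figure D3:**
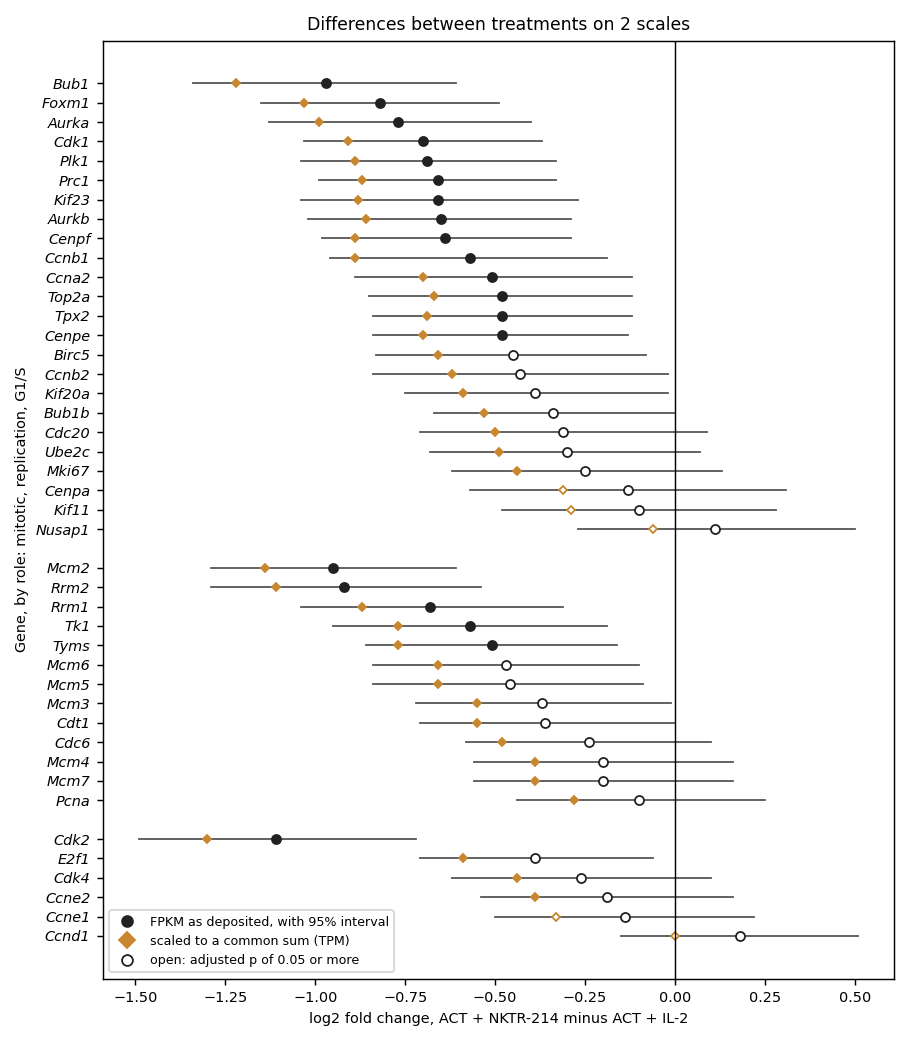
log2 fold change, ACT + NKTR-214 minus ACT + IL-2 (x axis), of the 43 genes by role. Black circles with 95% intervals are from FPKM as deposited, orange diamonds are from values scaled to a common sum, and filled symbols have an adjusted p under 0.05. Filled circles mark 20 genes and filled diamonds 38, all to the left of 0.

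To set mitotic beside replication genes, the mean log2(FPKM + 1) of each role was taken in each tumor. The mitotic mean was 4.56, 4.30 and 4.58 in ACT + IL-2 and 4.25, 4.10 and 3.63 in ACT + NKTR-214. The replication mean was 4.82, 4.54 and 4.74 against 4.48, 4.31 and 3.92. The groups did not overlap in either role, and the means differed by -0.49 for mitotic and -0.46 for replication genes. The mitotic mean minus the replication mean was -0.26, -0.24 and -0.16 in ACT + IL-2 and -0.24, -0.21 and -0.29 in ACT + NKTR-214. These values overlapped, with means of -0.22 ± 0.05 and -0.24 ± 0.04 (SD, n = 3 each), and their difference of -0.02 was smaller than the spread between tumors. A scale factor that applies to a whole tumor nearly cancels in this value. No test was made of it, since the genes were chosen with results known. The medians were -0.48 and -0.46. In the wider lists given below, the means differed by -0.38 for 60 other mitotic genes and by -0.24 for 48 other replication genes. Under TPM these values were -0.6 and -0.44, and the gap between the wider lists was not tested. On FPKM 58.3% of mitotic and 38.5% of replication genes passed the threshold, an order that turned round under TPM (87.5% and 100%), and the difference in shares was not tested.

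The tumor means also set these genes beside the markers of the tumor cells. The mean of the melanocyte markers was 8.79, 8.54 and 8.89 in ACT + IL-2 and 7.97, 7.43 and 7.94 in ACT + NKTR-214, a difference of -0.96. The mitotic mean minus the melanocyte mean was -4.23, -4.24 and -4.31 against -3.72, -3.33 and -4.31, and the replication mean minus the melanocyte mean was -3.97, -4.00 and -4.15 against -3.49, -3.12 and -4.02. Relative to the melanocyte markers, the cell cycle genes thus exceeded every ACT + IL-2 tumor in replicates 1 and 2 of ACT + NKTR-214, and in replicate 3 they were at the level of ACT + IL-2. The T cell marker mean was 2.06, 1.37 and 1.25 against 4.77, 4.92 and 3.91, and replicate 3 was the lowest ACT + NKTR-214 tumor in all 9 T cell markers. Which cells carried the cell cycle RNA was not tested.

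**Figure D4:**
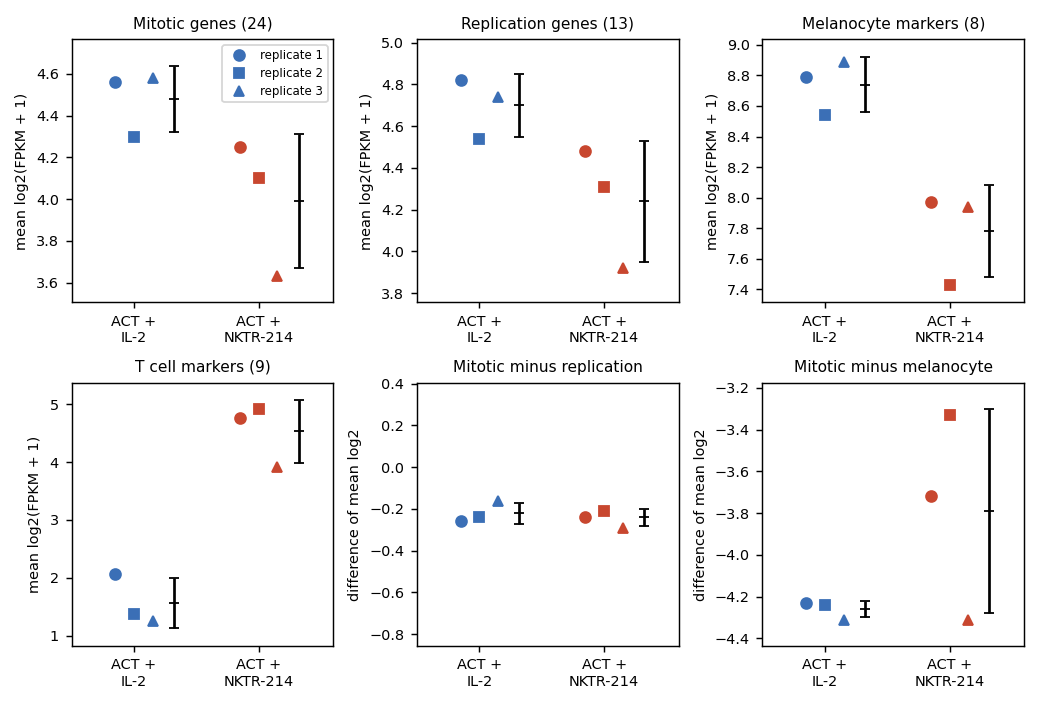
Mean log2(FPKM + 1) of mitotic genes, replication genes, melanocyte markers and T cell markers in each tumor, and the differences of these means, with mean and SD of the 3 tumors per group (black bars). Mitotic minus replication lies between -0.29 and -0.16 in all 6 tumors, and mitotic minus melanocyte is highest in ACT + NKTR-214 replicates 1 and 2.

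One tumor of each group was at its low end in most genes. ACT + NKTR-214 replicate 3 was the lowest of the 6 tumors in 24 of 24 mitotic, 13 of 13 replication and 4 of 6 G1/S genes. Without it, 12 of the 43 genes were lower (8 mitotic, 3 replication and 1 G1/S), against 7.12% of all genes, and 8 of the 20 calls were lost. The median log2 fold change of the 43 genes was then -0.27 (mitotic -0.31, replication -0.26) with 37 negative values. Without ACT + IL-2 replicate 3, 13 genes were lower, against 4.48% of all genes, and without ACT + IL-2 replicate 2, 15 were lower, against 14.1%. The 12 genes called whichever tumor was left out were *Bub1*, *Foxm1*, *Aurka*, *Cdk1*, *Plk1*, *Prc1*, *Aurkb*, *Cenpf*, *Mcm2*, *Rrm2*, *Rrm1* and *Cdk2*.

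ACT + IL-2 replicate 2, the tumor with the low FPKM sum, was the lowest of its group in all 43 genes on FPKM but in 1 of 43 once each tumor was scaled to the same sum (TPM). Under TPM 38 of the 43 genes were lower, against 31.2% of all genes: 21 mitotic, 13 replication and 4 G1/S genes, with median log2 fold changes of -0.69, -0.66 and -0.42. The median of all genes moved from 0.05 to -0.10 and the share of higher genes among all calls from 71.5% to 39.8%, a shift of -0.15 over all genes. Relative to the median of all genes, the median of the members was -0.51 on FPKM and -0.56 under TPM. The genes not called under TPM were *Cenpa*, *Kif11*, *Nusap1*, *Ccne1* and *Ccnd1*, and *Nusap1* changed sign to -0.06. Scaling to a common 75th percentile gave 31 lower genes (24.7% of all genes) and quantile normalization 33 (32.1% of all genes). With TPM and without ACT + NKTR-214 replicate 3, 34 were lower, against 30.6% of all genes. No setting gave a higher member.

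Some members share sequence with other genes, and the way reads were assigned by strand is not given in the sources used here. In 11 members more than 10% of 50-base stretches of exon also occur in another gene of GENCODE vM21. They were *Ccnb1* (42.1%, pseudogenes), *Mcm7* (34.2%), *Pcna* (31.8%, a pseudogene), *Kif20a* (31.2%, the neighbour *Cdc23*), *Cdk4* (29.5%, *Tspan31*), *Ccnd1* (27.2%, *LTO1*), *Ube2c* (17.8%, *Tnnc2*), *Ccne2* (17.4%, *Ints8*), *Ccna2* (15.9%, *Exosc9*), *Cdc20* (11.6%) and *Plk1* (10.9%), and their values are uncertain to that extent. Of the 32 members with at most 10% of such stretches, 17 were lower, against 8.28% of all genes. By position, 8 members had over 10% of their exon bases in another gene. Among these was *Prc1* (11.1%, *Rccd1*), which is not in the list above and is counted in the 17.

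Wider lists of mitotic and replication genes also held lower genes. Of 60 other mitotic genes, 20 were lower and 0 higher on FPKM (33.3% lower against 8.28% of all genes), with a median of -0.41. That median was -0.24 without ACT + NKTR-214 replicate 3 and -0.63 under TPM. The count fell to 7 without ACT + NKTR-214 replicate 3 (11.7% against 7.12% of all genes, with 1 higher) and to 11 without ACT + IL-2 replicate 3 (18.3% against 4.48%), and was 49 under TPM (81.7% against 31.2%, with 1 higher). The most negative were *Anln*, the anillin of the cleavage furrow (log2 fold change -1.23, adjusted p = 3.7e-05), *Ect2*, the exchange factor that starts furrowing (-0.98, adjusted p = 0.000437), and *Troap* (-0.78, adjusted p = 0.00209). *Anln* FPKM was 23.4, 19.6 and 26.5 against 11.3, 8.96 and 7.83, so that the lowest ACT + IL-2 tumor was well above the highest ACT + NKTR-214 tumor. Of 48 other replication genes, 7 were lower and 0 higher on FPKM (14.6% lower against 8.28% of all genes), with a median of -0.24. That median was -0.14 without ACT + NKTR-214 replicate 3 and -0.44 under TPM. Under TPM 35 were lower (72.9% against 31.2% of all genes), and 11 were lower without ACT + IL-2 replicate 2 (22.9% against 14.1%). The 7 on FPKM were *Chaf1b* (-0.73, adjusted p = 0.00269) and *Chaf1a* of the chromatin assembly factor, *Pole2* of polymerase epsilon (-0.72, adjusted p = 0.00335), *Uhrf1*, which copies DNA methylation (-0.70, adjusted p = 0.00367), *Mcm10*, *Prim2* and *Rpa3*.

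Of 20 other regulators of the G1/S step, 3 were higher (15% against 20.7% of all genes) and 3 were lower (15% against 8.28%), or 7 lower under TPM (35% against 31.2%). *Cdk6*, the second partner of the D cyclins, rose from 5.31, 4.56 and 4.57 FPKM to 13.9, 13.7 and 13.6 (log2 fold change 1.34, adjusted p = 4.18e-06), and the 3 ACT + NKTR-214 tumors were nearly level. *E2f2* (0.97, adjusted p = 0.00128) and *E2f4* (0.45, adjusted p = 0.0429) rose as well. *Skp2*, which targets the inhibitor p27 for degradation (-0.81, adjusted p = 0.00129), *E2f5* (-0.65, adjusted p = 0.00392) and the phosphatase *Cdc25a* (-0.57, adjusted p = 0.00846) fell.

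Of 24 cell cycle inhibitors tested, 11 were higher (45.8% against 20.7% of all genes) and 1 was lower (4.17% against 8.28%), or 5 lower under TPM (20.8% against 31.2%), with a median of 0.37 on FPKM. *Cdkn2a*, the locus of p16 and p19ARF, had FPKM of 0.553, 0.269 and 0.463 in ACT + IL-2 and 4.56, 5.52 and 3.33 in ACT + NKTR-214, a log2 fold change of 1.92 on the log2(FPKM + 1) scale (adjusted p = 3.95e-07). *Btg2*, an antiproliferative gene induced by p53, had 3.24, 1.66 and 1.83 against 13.2, 15 and 6.65 (1.92, adjusted p = 2.49e-05). All ACT + NKTR-214 tumors were above all ACT + IL-2 tumors in both genes. *Btg1* (1.45, adjusted p = 9.86e-05) was the next of the 11, and *Cdkn1a*, the p21 gene, rose by 0.79 (adjusted p = 0.00211). *Cdkn2c*, the p18 gene, fell by 0.56 on the log2 scale (adjusted p = 0.025). Markers of T cells, macrophages and neutrophils were higher in the same tumors, and their part in the higher inhibitors was not tested.

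**Figure D5:**
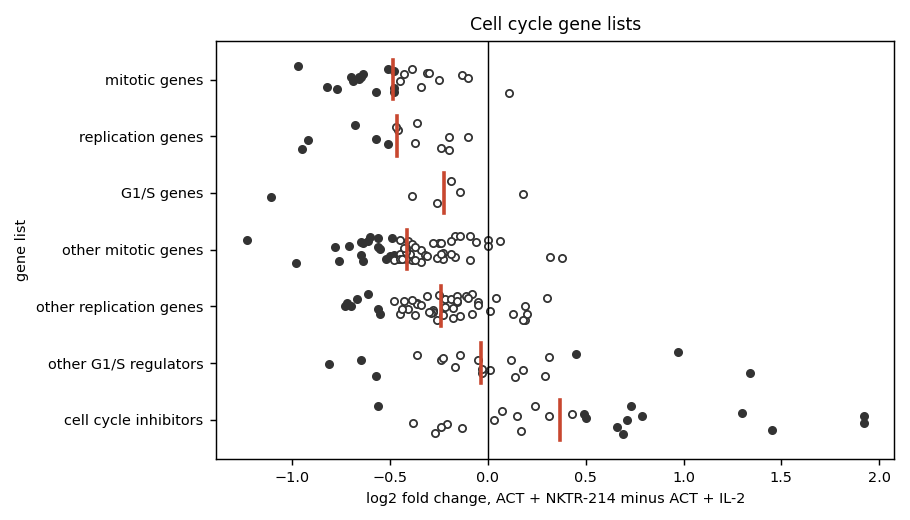
log2 fold change, ACT + NKTR-214 minus ACT + IL-2 (x axis), of each gene of 7 cell cycle lists (points, filled where the adjusted p was under 0.05), with the median of each list in red. The medians of mitotic and replication genes are -0.48 and -0.46, and that of the inhibitors is 0.37.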

How the data were processed

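The authors mapped single-end reads of 50 bases to GRCm38 with HISAT2 2.0.4, used HTSeq for counting reads by gene, and deposited linear FPKM, 1 column per tumor. All 6 columns were used and grouped by the labels. Values were taken as log2(FPKM + 1), which understates changes of low genes, and the 14172 genes whose FPKM averaged 0.1 or more were tested. The contrast was tested in limma 3.58.1 under R 4.3.3 (eBayes with an intensity trend, no block). P-values were adjusted after Benjamini and Hochberg, and 0.05 was the threshold. The script was tested on simulated data.

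Replicates are tumors of different mice, 3 per group. Depth was estimated from the steps of low FPKM values and GENCODE vM21 exon lengths. The members and lists were chosen with earlier results of these data known. Every member is named. Values per tumor are given for the 4 highest and 4 lowest log2 fold changes of each role and for usual markers, and the other lists are represented by their 3 highest and 3 lowest calls. *Cdkn1a*, *Mitf*, 4 further replication genes and the printed promoters were chosen after their values or matches were seen. *Btg3*, *Hba-a1* and *Hba-a2* were not analysed here, and 1 marker is not reported here. Alternatives were other pseudocounts, minimums and scalings, no trend, a replicate block and each tumor left out. Python 3.11.15 with pandas 2.3.3 and matplotlib 3.10.9 made the tables and plots.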

Additional observations from a re-analysis of the deposited data

How the results depend on the processing

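The count of 0 higher members held under every alternative run, and the settings that keep all tumors changed the direction of 1 member, *Nusap1*. Of single members, those that changed sign were *Cenpa* (0.16), *Kif11* (0.09), *Pcna* (0.05) and *Ccne1* (0.03) without ACT + NKTR-214 replicate 3, and *Nusap1* under TPM (-0.06) and without ACT + NKTR-214 replicate 1 (-0.02), none of them past the threshold. With each tumor left out these 5 ranged from -0.29 to 0.16, -0.24 to 0.09, -0.18 to 0.05, -0.28 to 0.03 and, for *Nusap1*, -0.02 to 0.32. The mitotic minus replication difference stayed between -0.042 and 0.006.

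Counts of lower genes depended on scaling and on the minimum. Under TPM, the 75th percentile and quantile normalization they were 38, 31 and 33 for all members (beside 31.2%, 24.7% and 32.1% of all genes), 13, 9 and 10 for replication members, 4, 3 and 4 for G1/S members, 49, 43 and 46 for other mitotic genes (with 1 higher gene each), 35, 29 and 32 for other replication genes, 7, 6 and 7 for other G1/S regulators, and 5 each for inhibitors. With no minimum they were 12 for all members, beside 6.56% of the 14172 genes of the main fit. That setting gave 8 for mitotic and 3 for replication members, 10 for other mitotic genes and 0 for inhibitors. Under it more genes of low level entered the fit and the adjustment. The cause of the other changes was not tested. With TPM and 1 tumor left out, a setting chosen after seeing the data, 34 members were lower without ACT + NKTR-214 replicate 3 (beside 30.6% of all genes) and 31 without ACT + IL-2 replicate 2 (beside 20.1%).

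With each tumor left out in turn, 12 to 24 members were lower (27.9% to 55.8%, beside 4.48% to 14.1% of all genes), 8 to 16 mitotic, 3 to 7 replication and 1 to 2 G1/S. Other mitotic genes had 7 to 30 lower and 0 to 1 higher, other replication genes 6 to 11 lower and 0 to 1 higher, other G1/S regulators 3 to 4 lower and 2 to 3 higher, and inhibitors 0 to 3 lower and 8 to 13 higher. With the other CHR form, 15% of mitotic windows held a match, against 1.56% of all windows, in place of 75% against 17.9%.

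The replicate number was not taken as a pairing. Deviations of same-numbered tumors correlated at -0.2065, -0.06669 and 0.3963, and those of differently numbered tumors at between -0.5421 and 0.5863. With 3 tumors per group, these correlations cannot decide whether the numbers pair the tumors. With a replicate block 23 members were lower (15 mitotic, 7 replication and 1 G1/S, beside 8.66% of all genes) and 11 other replication genes.

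Libraries of an estimated 20900000 to 24700000 reads gave every member about 160 reads or more in each tumor, so the spread between 3 tumors limits precision more than counting does.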
